A study of Homo sapiens with 4 samples.

Results

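The genes of sterol and fatty acid synthesis were followed in DU145 cells, an established human prostate cancer line, after knockdown of TAZ, a transcriptional coactivator of the Hippo pathway that is encoded by WWTR1. The members are 28 genes given by name, and all 28 had a row among the 19869 gene rows used. They fall into 18 enzymes of sterol synthesis, 5 enzymes of fatty acid synthesis, and 5 genes of control and transport, namely SREBF1, SREBF2, SCAP, INSIG1 and STARD4.

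RNA-seq was made from 2 control libraries (pLKO 1 and pLKO 2, cells with the empty lentiviral hairpin vector pLKO) and 2 TAZ knockdown libraries (shTAZ 1 and shTAZ 2). The cells of all 4 libraries were grown in DMEM with 10% fetal bovine serum, so lipids from serum were present in every library. The design text says that the knockdowns used 2 independent hairpins against TAZ; the labels do not say which library carries which, so a difference between shTAZ 1 and shTAZ 2 cannot be told apart from a difference between hairpins. No source says whether the 2 libraries of a group are separate cultures, so the p-values speak only to the spread among these 4 libraries, part or all of which may be technical.

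Cholesterol is built from acetyl-CoA through mevalonate, farnesyl diphosphate, squalene and lanosterol, and fatty acids are built from the same acetyl-CoA by way of malonyl-CoA. Both routes are controlled by SREBP proteins, transcription factors that are made as membrane proteins of the endoplasmic reticulum. When sterols are scarce, SCAP carries them to the Golgi, where proteases release the active part; when sterols are plentiful, INSIG proteins hold SCAP back. The product of SREBF2 acts mainly on sterol genes and the main product of SREBF1 on fatty acid genes, and prostate cancers are known for high rates of fatty acid synthesis.

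Values are normalized read counts, and recovered read totals ran from 11687727 to 14814918 per library. WWTR1 had 2508 and 3626 normalized counts in pLKO 1 and 2 and 839 and 719 in shTAZ 1 and 2, so the targeted gene was lower in both knockdown libraries (limma adjusted p = 0.0086). Epithelial markers (KRT8, KRT18, EPCAM and CDH1) were all present, with summed counts of 29246 and 40419 in pLKO and 25992 and 16218 in shTAZ. The sum is mostly KRT8 and KRT18; EPCAM had 520 and 661 counts in pLKO and 709 and 1061 in shTAZ, and CDH1 had 820 and 1329 in pLKO and 2296 and 1355 in shTAZ, both higher in shTAZ. Of the androgen receptor and luminal markers, TMPRSS2 had no more than 3.13 counts in any library, and the others are not reported here. Markers of leukocytes summed to at most 29.7 counts, of endothelium to at most 23.0, and of adipocytes and hepatocytes to at most 4.43 in any library. Fibroblast markers, 4 of 6 with a row and none of these 4 at 0 in every library, summed to 105 and 54.1 in pLKO and 171 and 157 in shTAZ. That sum is mostly COL1A1, with 85.3 and 36.8 counts in pLKO and 135 and 147 in shTAZ. COL1A2 had 9.28 and 13.8 in pLKO, 28.3 in shTAZ 1 and 5.21 in shTAZ 2. PDGFRB had 9.28 and 2.3 in pLKO and 6.2 and 2.1 in shTAZ, and COL3A1 had no more than 3.13 in any library. The part of these shifts in the results that follow was not tested, and in bulk RNA fewer cells of a type and less RNA per cell cannot be told apart.

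No member passed the test across all genes. limma called 0 of 28 members at an adjusted p threshold of 0.05, where 0.0113% of the 17735 rows tested were called. Before adjustment, 3 members (LSS, ACAT2 and SREBF1), or 10.7%, had a limma p under 0.05, against 7.05% of all rows. edgeR, DESeq2 and limma-voom, run on the recovered reads, also called 0 members (0.0564, 0.542 and 0.0113% of their rows were called), and the authors' deposited table called 0 members where it called 0.537% of its rows. The 95% intervals rest only on the spread among these libraries, so they do not bound a change beyond them. For 26 of the 28 members the 95% interval of the fold change lay inside a 2-fold change in either direction, and the other two were LSS and SREBF1.

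Most members had higher values in shTAZ. The mean log2 value was higher in shTAZ for 22 of the 28 members (78.6%), and for 8682 of all 17735 rows; it was lower for PMVK, TM7SF2, HSD17B7, FASN, SCAP and SREBF1. Both shTAZ libraries lay above both pLKO libraries for 11 members (39.3%; background 18.4%) and below them for 3 (10.7%; background 19%), so that the groups did not overlap for 14 members (50%; background 37.4%). The members that lay above were ACAT2, MVK, MVD, IDI1, FDPS, FDFT1, LSS, DHCR7, ACLY, SCD and INSIG1. Those below were PMVK, HSD17B7 and SREBF1.

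**Figure D1:**
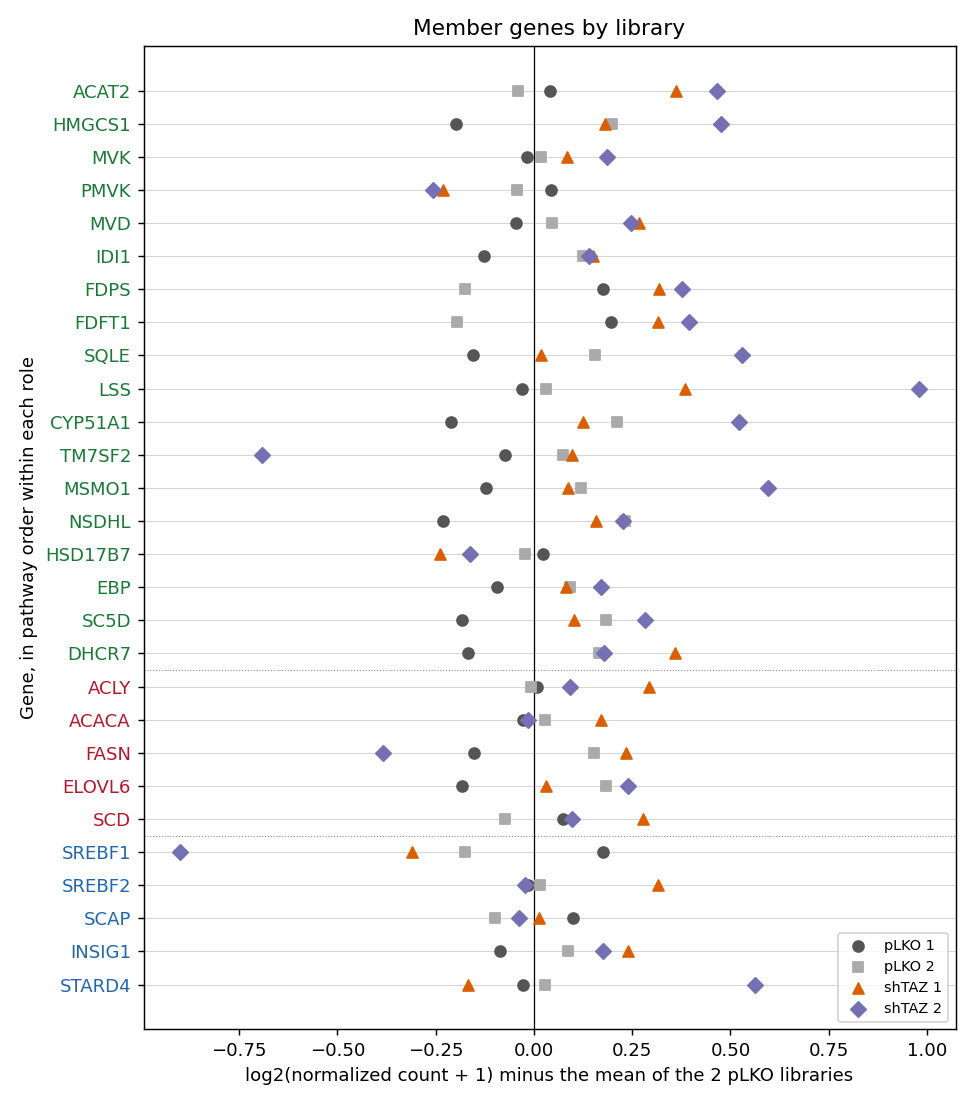
Each row is a gene and each point a library, placed by its log2(normalized count + 1) minus the mean of the 2 pLKO libraries; gene names are green for sterol enzymes, red for fatty acid enzymes and blue for SREBP regulators with STARD4. LSS in shTAZ 2 lies farthest to the right and SREBF1 in shTAZ 2 farthest to the left.

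The sterol enzymes had a median log2 fold change of 0.26, where the median of all rows was -0.0075. Their fold changes ran from -0.30 for TM7SF2 to 0.68 for LSS, 15 of 18 had a higher mean in shTAZ, and limma called 0. The 4 differences between a knockdown and a control library, which share libraries, had medians of 0.24 and 0.32 for shTAZ 1 and shTAZ 2 over pLKO 1, and 0.0063 and 0.18 over pLKO 2. By these medians the enzymes were higher than in pLKO 1 in both knockdown libraries. Against pLKO 2 they were higher in shTAZ 2 but hardly in shTAZ 1. Single enzymes departed from this, with PMVK and HSD17B7 below both controls in both knockdown libraries. Without pLKO 1 the median was 0.11, and without shTAZ 2 it was 0.14.

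The entry to the pathway was described by ACAT2 and HMGCS1, the cytosolic enzymes that join acetyl-CoA units on the way to mevalonate. ACAT2 had 466 and 441 normalized counts in pLKO 1 and 2 and 582 and 625 in shTAZ 1 and 2. Both knockdown libraries lay above both controls, with means of 453 ± 17.8 and 604 ± 30.8 (SD, n = 2 each) and a ratio of 1.33. The difference was 0.41 ± 0.18 on the log2 scale (SE; limma adjusted p = 0.691). HMGCS1 had 747 and 985 counts in pLKO and 972 and 1193 in shTAZ, so shTAZ 1 lay just under pLKO 2 and the groups overlapped (log2 fold change 0.33 ± 0.19, SE).

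The kinases and the decarboxylase that turn mevalonate into isopentenyl diphosphate differed in direction by small amounts. MVK, mevalonate kinase, had 224 and 229 counts in pLKO and 240 and 257 in shTAZ. PMVK, the next kinase, had 603 and 568 in pLKO and 499 and 490 in shTAZ, and was one of the few sterol enzymes whose knockdown libraries both lay below the controls. MVD, the decarboxylase that follows, had 440 and 469 in pLKO and 547 and 539 in shTAZ. The log2 fold changes were 0.14, -0.24 and 0.26, and the limma adjusted p-values of all 3 lay between 0.791 and 0.924.

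IDI1, the isomerase that makes dimethylallyl diphosphate, had 402 and 478 counts in pLKO and 487 and 484 in shTAZ, where the lower knockdown library exceeded the higher control by about 5 counts. FDPS, which builds farnesyl diphosphate, had 2122 and 1663 in pLKO and 2342 and 2441 in shTAZ. FDFT1, squalene synthase, had 1998 and 1521 in pLKO and 2170 and 2290 in shTAZ. In FDPS and FDFT1 alike the controls differed more from each other than the knockdown libraries did, with SDs of 325 and 338 in pLKO against 69.9 and 84.5 in shTAZ (n = 2 each). Both had a log2 fold change of 0.35, with SEs of 0.17 and 0.18 (limma adjusted p = 0.714 for each). FDPS, HSD17B7 and SCD have closely similar pseudogene copies, and IDI1 a close paralog in IDI2; the sources used here do not say how reads with several matching places were treated, so these values are uncertain to that extent.

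SQLE and LSS close the sterol ring system, SQLE by oxidizing squalene and LSS by folding the epoxide into lanosterol. LSS had 628 and 656 counts in pLKO and 838 and 1265 in shTAZ. Both knockdown libraries were above both controls, and shTAZ 2 stood well above shTAZ 1, with means of 642 ± 19.5 and 1052 ± 302 (SD, n = 2 each) and a ratio of 1.64. The log2 fold change of 0.68 ± 0.21 (SE; 95% interval 0.22 to 1.14) was the largest of the 28 members and higher than that of 93.1% of all rows, and its limma adjusted p was 0.568. Without shTAZ 2 it was 0.38, and without shTAZ 1 it was 0.98. SQLE had 734 and 910 counts in pLKO and 827 and 1179 in shTAZ, so that only shTAZ 2 lay above both controls.

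The later enzymes trim lanosterol to cholesterol. CYP51A1, the lanosterol demethylase, had 1000 and 1341 counts in pLKO and 1263 and 1662 in shTAZ, and MSMO1, a methyl sterol oxidase, had 243 and 288 in pLKO and 281 and 400 in shTAZ. In both genes shTAZ 1 lay between the controls and shTAZ 2 above them. TM7SF2, a sterol reductase that acts between them, did otherwise, at 701 and 776 in pLKO, 789 in shTAZ 1 and 457 in shTAZ 2. Its value was the highest of the 4 libraries in one knockdown and the lowest in the other, and its log2 fold change of -0.30 turned to 0.096 without shTAZ 2.

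HSD17B7, a sterol ketone reductase, had 123 and 120 counts in pLKO and 103 and 108 in shTAZ, slightly lower in both knockdown libraries at the lowest read numbers of all members (104 reads in its smallest library). DHCR7, which makes cholesterol from its dehydro precursor, had 2071 and 2610 in pLKO and 2984 and 2633 in shTAZ; the margin between shTAZ 2 and pLKO 2 was small. NSDHL, EBP and SC5D, a decarboxylating dehydrogenase, an isomerase and a desaturase of the same stretch, all overlapped between the groups, with log2 fold changes of 0.19, 0.13 and 0.19. The log2 fold changes of these 5 enzymes had limma adjusted p-values from 0.774 to 0.906.

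**Figure D2:**
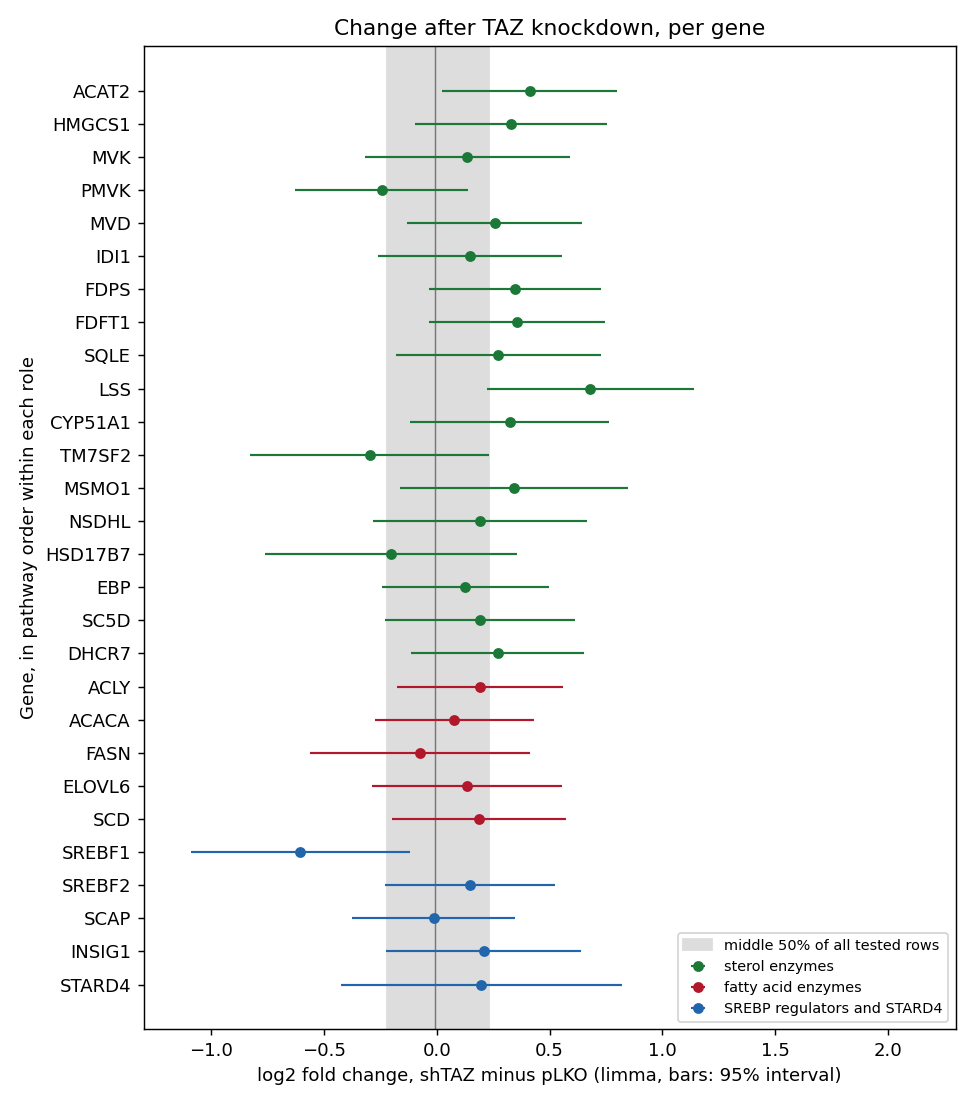
The log2 fold change of each gene (shTAZ minus pLKO, limma) is shown with its 95% interval, and the grey band holds the middle 50% of all rows tested. The intervals of LSS and ACAT2 lie above 0 and that of SREBF1 below it, before any adjustment for the number of rows.

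The fatty acid enzymes had a median log2 fold change of 0.13 (0.23 without shTAZ 2). Of the 5, 4 had a higher mean in shTAZ, and limma called 0. ACLY, which makes cytosolic acetyl-CoA from citrate for both routes, had 5755 and 5699 counts in pLKO and 7016 and 6106 in shTAZ. SCD, the desaturase that makes oleate, had 9300 and 8391 in pLKO and 10710 and 9444 in shTAZ, a value in shTAZ 2 close to that of pLKO 1. In both genes each knockdown library lay above each control, with ratios of 1.15 and 1.14 and limma adjusted p-values of 0.845 and 0.857.

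FASN, the fatty acid synthase itself, had 7038 and 8708 counts in pLKO, 9207 in shTAZ 1 and 6001 in shTAZ 2. The knockdown libraries were the highest and the lowest of the 4, and the mean was 7873 ± 1181 in pLKO and 7604 ± 2267 in shTAZ (SD, n = 2 each). ACACA, the carboxylase that makes malonyl-CoA, had 1688 and 1754 in pLKO and 1937 and 1704 in shTAZ, and ELOVL6, which lengthens palmitate, had 545 and 703 in pLKO and 632 and 731 in shTAZ; both overlapped. The widest 95% interval of the 5, that of FASN, ran from -0.56 to 0.41 on the log2 scale. The direction of this group depended on a correction, since its median was -0.071 once the trend of each library with transcript length and GC content was taken out, and ACACA and ELOVL6 turned to -0.15 and -0.071.

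Among the regulators, SREBF1 had a lower mean log2 value in shTAZ, while that of SREBF2 was higher only through shTAZ 1. SREBF1 had 1154 and 904 counts in pLKO and 824 and 547 in shTAZ. Both knockdown libraries lay below both controls, shTAZ 2 the lower of them, with means of 1029 ± 177 and 685 ± 195 (SD, n = 2 each) and a ratio of 0.666. On the log2 scale it differed by -0.60 ± 0.22 (SE; 95% interval -1.09 to -0.12; limma adjusted p = 0.649), and 7.42% of all rows had a lower fold change. It was -0.31 without shTAZ 2 and -0.90 without shTAZ 1.

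SREBF2 had 2804 and 2868 counts in pLKO, 3531 in shTAZ 1 and 2793 in shTAZ 2, so that shTAZ 1 stood high and the other 3 libraries lay together. Its log2 fold change was 0.15 ± 0.17 (SE), and -0.022 without shTAZ 1. Per kilobase of transcript, SREBF1 was at 0.519 and 0.398 of the level of SREBF2 in pLKO 1 and 2 and at 0.294 and 0.247 in shTAZ 1 and 2, lower in both knockdown libraries. With 2 libraries a group, the exact permutation test of the log2 of that ratio (two-sided) gave p = 0.333, the smallest this design allows. Any ratio whose groups do not overlap gives that value, so the test decides nothing.

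The partners of the SREBP proteins showed smaller differences. SCAP, the escort protein, had 1263 and 1101 counts in pLKO and 1190 and 1148 in shTAZ, both knockdown libraries lying between the controls. INSIG1, the retention protein and itself a target of SREBP proteins, had 269 and 304 in pLKO and 337 and 323 in shTAZ, above the controls in both libraries (log2 fold change 0.21 ± 0.20, SE; limma adjusted p = 0.858). STARD4, a sterol transfer protein of the cytosol, had 133 and 138 in pLKO, 120 in shTAZ 1 and 200 in shTAZ 2, and so lay on opposite sides of the controls in the knockdown libraries. The median log2 fold change of these 5 genes was 0.15, but it was -0.022 without shTAZ 1 and 0.014 without shTAZ 2.

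**Figure D3:**
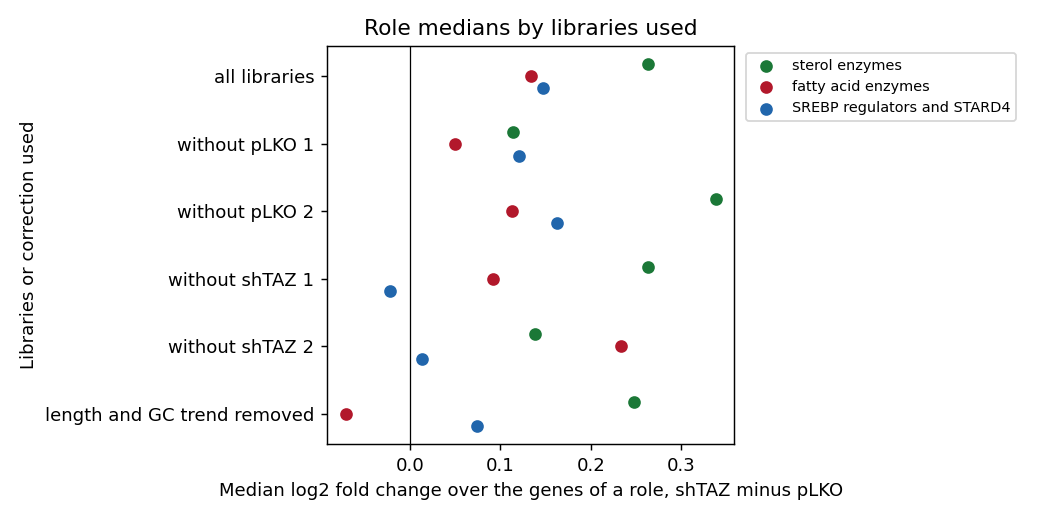
Median log2 fold change (shTAZ minus pLKO) of the sterol enzymes, fatty acid enzymes and SREBP regulators with STARD4, with all 4 libraries, without each library in turn, and with the length and GC trend removed. The sterol median stays between 0.11 and 0.34, while the other medians come to lie on both sides of 0.

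Libraries of the same group also differed in these genes. Among the 18 sterol enzymes, 13 were higher in pLKO 2 than in pLKO 1 and 13 were higher in shTAZ 2 than in shTAZ 1, where 9037 and 8876 of the 17735 rows were. The median difference was 0.17 between the controls and 0.083 between the knockdown libraries on the log2 scale, so the control difference was of the same order as the median fold change of the group. The lowest of the 4 values was that of pLKO 1 for 12 of the 18 sterol enzymes, and the highest that of shTAZ 2 for 11. The matching shares over all rows were not counted, so these counts have no background. For 9 of the 18 (50%; background 24.1%), library 2 of each group had the larger value. Among these, HMGCS1, SQLE, CYP51A1 and MSMO1 differed by 0.24 to 0.42 in pLKO and by 0.30 to 0.51 in shTAZ.

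The knockdown libraries split most widely in TM7SF2, STARD4, FASN, LSS and SREBF1. On the log2 scale shTAZ 2 minus shTAZ 1 was -0.79 for TM7SF2, 0.73 for STARD4, -0.62 for FASN, 0.59 for LSS and -0.59 for SREBF1. The fatty acid enzymes other than ELOVL6 were lower in shTAZ 2 than in shTAZ 1, at a median of -0.18 over the 5. With 1 library each, these differences have no replicate check.

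**Figure D4:**
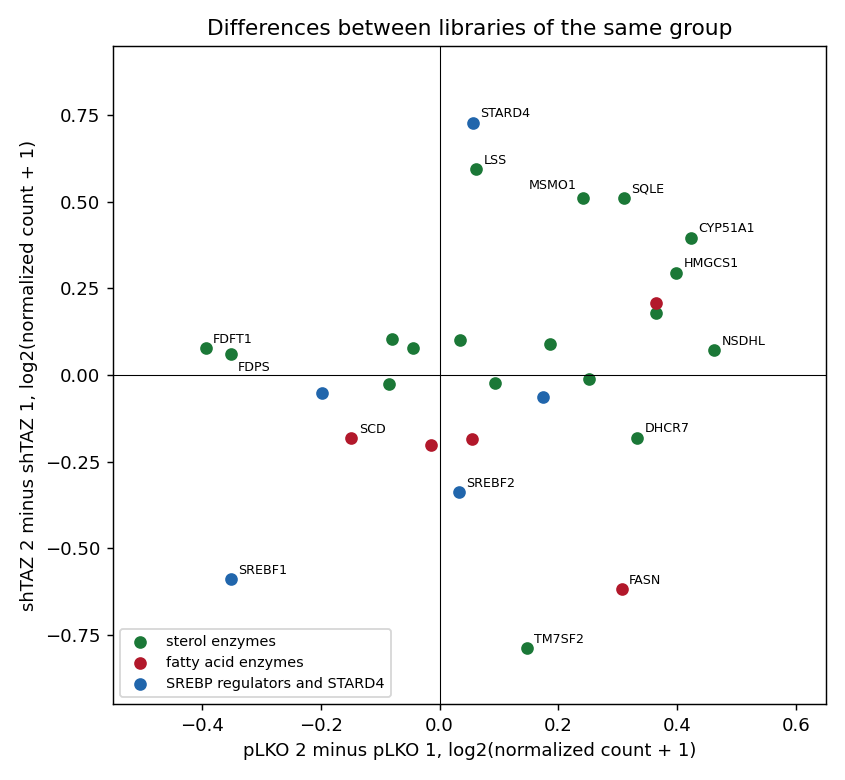
Each point is a gene, placed by the difference between the control libraries (x axis) and between the knockdown libraries (y axis) in log2(normalized count + 1); the 2 axes share no library. LSS and STARD4 lie high and TM7SF2 and FASN low on the y axis at small or moderate differences between controls.

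Levels of different genes were set side by side per kilobase of the longest coding transcript. In pLKO the highest levels were those of SCD, ACLY and FDPS, with 1650, 1320 and 1281 normalized counts per kilobase, followed by FASN with 919 and DHCR7 with 878. STARD4 was the lowest, with 29.4, and MVK the lowest of the enzymes, with 82.4. Neighbours in this order often overlapped: the level of FDPS in pLKO 1 exceeded that of ACLY, and FASN and DHCR7 were in a different order in different libraries. LSS had 130 in pLKO and 213 in shTAZ.

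**Figure D5:**
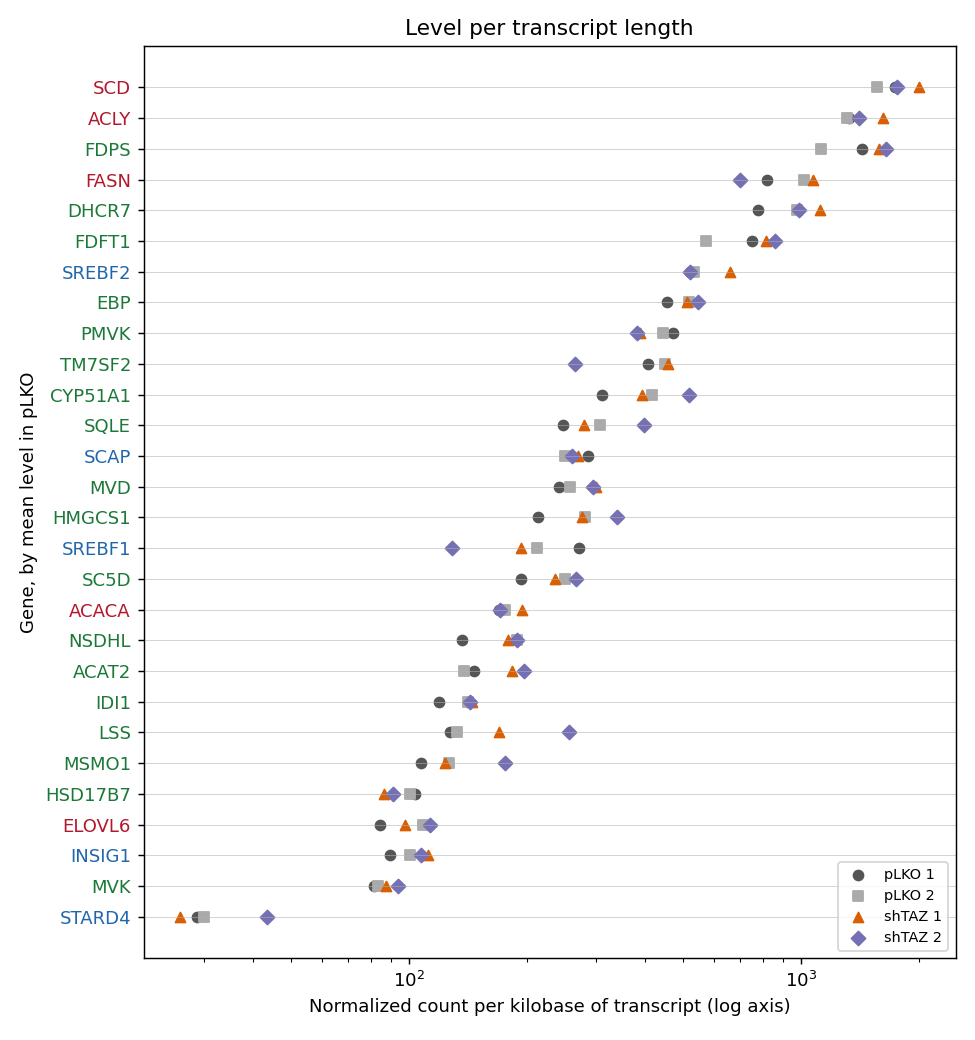
Normalized count per kilobase of transcript (log axis) of each gene in each library, ordered by the mean of pLKO, with names coloured by role as in the plot by library. The span from STARD4 (29.4 in pLKO) to SCD (1650 in pLKO) is far wider than the spread between libraries of any member.

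Promoter sequence was examined because most sterol enzymes differed in the same direction, though none passed the test across all genes. These enzymes share a regulator in SREBP proteins, which bind sterol regulatory elements next to sites of the factor NF-Y. Whether SREBP proteins had a part in these differences was not tested. RefSeq promoter windows (GRCh38.p14) were found for 24 of the 28 members (not for ACAT2, FDFT1, SQLE and FASN), and the 250 bases before each start were searched on both strands for TCACNCCAC and CACCCCAC (letters of the sterol regulatory element, overlapping each other), CCAAT (the NF-Y box) and CACGTG (an E-box). A gene counted if any of its windows matched; the 24 members had 32 windows. CCAAT was found for 19 of 24 members, and for 13 of the 15 sterol enzymes scanned, against 37.0% of 27305 genes. Those 27305 are all genes with a RefSeq window, measured here or not, so the shares were not matched for expression. TCACNCCAC was found for 1 member, SREBF2, against 1.09% of genes, CACCCCAC for the same member, against 2.97%, and CACGTG for INSIG1, SCAP and SC5D, against 7.73%.

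SREBF1 and LSS had the largest fold changes, and of the 24 members scanned only SREBF2 matched the 2 element spellings searched. The windows of these genes and of the sterol enzyme HMGCS1 are therefore printed. They run 5′ to 3′ on the gene's strand and end at the base before the RefSeq start (the first of 2 windows for HMGCS1), with matches to the 2 element spellings and to CCAAT (read as ATTGG on the other strand) in capitals. They are SREBF2 at chr22:41832855-41833104 (plus strand), SREBF1 at chr17:17836987-17837236 (minus strand), LSS at chr21:46228775-46229024 (minus strand) and HMGCS1 at chr5:43313413-43313662 (minus strand).
SREBF2: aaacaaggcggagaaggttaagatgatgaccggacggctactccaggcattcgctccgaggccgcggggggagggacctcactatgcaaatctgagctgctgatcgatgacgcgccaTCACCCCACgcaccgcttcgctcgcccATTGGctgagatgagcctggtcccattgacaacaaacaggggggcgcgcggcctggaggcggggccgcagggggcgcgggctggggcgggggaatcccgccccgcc
SREBF1: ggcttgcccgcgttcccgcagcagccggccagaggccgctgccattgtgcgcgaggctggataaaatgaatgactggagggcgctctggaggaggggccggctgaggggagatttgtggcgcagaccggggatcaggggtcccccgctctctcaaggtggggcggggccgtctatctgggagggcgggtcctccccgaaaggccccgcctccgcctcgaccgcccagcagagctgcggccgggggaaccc
LSS: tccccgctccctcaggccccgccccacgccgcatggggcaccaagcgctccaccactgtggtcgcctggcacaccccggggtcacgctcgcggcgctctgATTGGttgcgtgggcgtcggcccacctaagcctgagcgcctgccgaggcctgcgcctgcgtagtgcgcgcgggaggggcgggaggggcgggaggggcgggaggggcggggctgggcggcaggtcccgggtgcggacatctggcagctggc
HMGCS1: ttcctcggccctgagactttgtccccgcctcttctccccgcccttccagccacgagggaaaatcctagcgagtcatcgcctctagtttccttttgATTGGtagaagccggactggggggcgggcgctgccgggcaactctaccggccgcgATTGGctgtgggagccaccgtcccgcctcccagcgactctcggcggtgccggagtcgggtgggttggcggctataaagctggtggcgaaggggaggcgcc

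SREBF2 carried these letters of the element 133 to 125 bases before the start and the NF-Y box in reverse 106 to 102 bases before it. LSS had 1 reverse NF-Y box 150 to 146 bases before its start and HMGCS1 had 2, while the SREBF1 window held none of the 3 spellings. A match here describes letters, not a site in use, and no match says only that these letters are not in this window.

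Other genes of lipid metabolism were counted from 4 further lists with 67 genes, all tested. limma called 0 of them, and 7 had an unadjusted limma p under 0.05 (background 7.05%). edgeR and limma-voom called 0, and DESeq2 called 1 (background 0.542%). That gene was ACSL4, which activates arachidonate and other polyunsaturated fatty acids. It had 524 and 771 counts in pLKO and 1131 and 1214 in shTAZ, both knockdown libraries above both controls, a log2 difference of 0.88 ± 0.20 (SE), and adjusted p-values of 0.355 with limma, 0.223 with edgeR and 0.0475 with DESeq2. The authors' deposited table gave it an adjusted p of 0.0482.

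In the list of 11 further isoprenoid and sterol genes the median log2 fold change was 0.17, and both shTAZ libraries lay above both controls for 4 (background 18.4%). GGPS1, which makes geranylgeranyl diphosphate, had 340 and 247 counts in pLKO and 321 and 374 in shTAZ. IDI2, the paralog of IDI1, had 138 and 221 in pLKO and 147 and 128 in shTAZ. Both genes overlapped between the groups, with log2 fold changes of 0.25 and -0.35.

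Genes of SREBP handling had a median of 0.14, and 9 of 13 had a higher mean in shTAZ. MBTPS2, a Golgi protease that releases SREBP proteins, had 298 and 335 counts in pLKO and 444 and 359 in shTAZ. PAQR3, a Golgi protein that tethers SCAP, had 218 and 423 in pLKO and 434 and 443 in shTAZ, and ERLIN2, a scaffold of sterol-regulated protein degradation, had 981 and 1066 in pLKO and 964 and 764 in shTAZ. The smallest limma adjusted p in the list was 0.728.

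Genes of cholesterol uptake, export and storage had a median log2 fold change of -0.14. Of these, 10 of 17 had a lower mean, and both shTAZ libraries lay below both controls for 7 of 17, where 19% of all rows did. NR1H3, which encodes a sterol-sensing nuclear receptor (LXR alpha), had 86.3 and 78.2 counts in pLKO and 59.3 and 52.1 in shTAZ. The related receptor gene NR1H2, named after its values were seen, had 1114 and 1042 in pLKO and 1127 and 1046 in shTAZ. MYLIP, a ubiquitin ligase for lipoprotein receptors, had 227 and 214 in pLKO and 179 and 121 in shTAZ. ABCA1, the cholesterol exporter, had 212 and 167 in pLKO and 133 and 146 in shTAZ, and PLTP, a phospholipid transfer protein, 51.0 and 42.6 in pLKO and 36.3 and 26.1 in shTAZ. NR1H3, MYLIP, ABCA1 and PLTP were named for having the smallest p of their list, and none passed (limma adjusted p = 0.693 to 0.774).

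In the list of 26 further fatty acid and lipid genes the median was 0.12, with both shTAZ libraries above both controls for 10 (background 18.4%) and below them for 6 (background 19%). Besides ACSL4, the genes with the smallest p were ELOVL7 and HSD17B12, which act in fatty acid elongation, and LPIN2, a phosphatidate phosphatase. ELOVL7 had 137 and 131 counts in pLKO and 188 and 260 in shTAZ, and HSD17B12 had 419 and 449 in pLKO and 561 and 668 in shTAZ. LPIN2 had 1227 and 1248 in pLKO and 1492 and 1923 in shTAZ. All 3 had both knockdown libraries above both controls, log2 fold changes of 0.45 to 0.71, and limma adjusted p-values of 0.627 to 0.685.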

How the data were processed

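RNA-seq of 4 DU145 libraries was used. The authors deposited 1 table per gene symbol with the signal of each library as normalized read counts, their mean signal, and their own DESeq2 results (log2 fold change and its error, Wald score, p-value and adjusted p-value), per the file headers. The submitters' processing notes name STAR, DESeq2 and hg19 without version or role; the read counter and annotation are not stated in those sources. The kit described in the labels does not mark strand. In each library 100% of values were whole multiples of the smallest (within 0.001 reads), which gave the reads. Of 19897 rows, 26 named by dates and those of 1 repeated symbol were left out.

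limma 3.58.1 (R 4.3.3) was run on log2(value + 1), a scale that understates changes of low genes, with an intensity trend and no replicate block, on 17735 rows with a value of at least 1 in at least 2 libraries. P-values were adjusted by Benjamini-Hochberg over those rows (threshold 0.05). edgeR 4.0.16, DESeq2 1.42.0 and limma-voom on the recovered reads were alternatives. The steps were checked on simulated data whose set changes were larger than those of any member, so the check does not speak to finding changes as small as theirs. Transcript length and GC content came from the longest coding transcript (GENCODE 29), found for 15011 tested rows and all 28 members. No coordinates are given for the hg19 data; promoter coordinates are RefSeq's, in GRCh38.p14. The members and lists were chosen with earlier results of these data known. Text names all members, WWTR1 and, from each further list, the 4 genes with the smallest limma p, of which some are not reported here.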

Additional observations from a re-analysis of the deposited data

How the results depend on the processing

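Members past the threshold numbered 0 under every alternative run except the crossed pairing described below. That pairing called 1 member, higher in shTAZ, and 240 of all 17735 rows. Members whose groups did not overlap numbered 14, the same 14 with TMM scaling; with the length and GC trend removed they again numbered 14, of which 11 were shared (PMVK, IDI1 and SCD came to overlap, and EBP, SREBF2 and ACACA no longer did). Over all genes limma called 2, against 10 with edgeR, 68 with DESeq2, 7 with the replicate block and 13 with the block and the trend removed; without any 1 library it called 0. Same-numbered libraries of the 2 groups did not deviate together across all rows (correlation -0.039; -0.11 in the more highly expressed rows), so the block pairs nothing known, and the crossed pairing, added after the data were seen, called 240 genes. The medians without 1 library ranged from 0.11 to 0.34 for sterol enzymes, 0.051 to 0.23 for fatty acid enzymes and -0.022 to 0.16 for SREBP regulators. With the trend removed, with or without the block, the fatty acid median was -0.071 and the regulator median 0.075, and ACACA, ELOVL6 and SCAP changed sign, to -0.15, -0.071 and 0.075; the cause was not tested. Leaving out 1 library also changed the sign of NSDHL (-0.039 to 0.42), ELOVL6 (-0.048 to 0.32), SCAP (-0.11 to 0.086), FASN (-0.38 to 0.23), ACACA (-0.014 to 0.17), SREBF2 (-0.022 to 0.32), TM7SF2 (-0.69 to 0.096) and STARD4 (-0.17 to 0.56). Of 420 member values recomputed, the crossed pairing not among them, 404 kept direction and side of the threshold. Several of those settings, such as the filters and the block, cannot change a fold change. With 1 library left out, 102 of 112 values kept both and 10 changed sign. The members had 104 to 12095 reads per library, and 2 libraries per group limit what the tests can call.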
